A study of Sus scrofa with 6 samples.

Results

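The let-7 and miR-98 family was measured on microRNA arrays of miniature pig tooth germs. Its members were the experimental probes whose name contains let-7, or has the number 98 after ssc-miR-, miR- or PN-, with predicted candidates (PC probes) left out. This gave 8 of 742 probes, of which 7 carry the let-7 seed and 1 is the opposite arm of the miR-98 hairpin. RNA came from germs of the deciduous incisor, canine, premolar and molar, removed under a microscope from embryos of days 40, 50 and 60. Each of these 12 conditions is 1 RNA, and the labels give neither a strain or genotype beyond miniature pig nor the number of embryos behind an RNA. Of the 6 arrays, each took 1 RNA in Cy3 and 1 in Cy5, and every probe had 4 spots. A germ holds dental epithelium, mesenchyme, vessels and nerve, and whole germs were profiled, so fewer cells of a type and less RNA per cell cannot be told apart.

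The let-7 microRNAs are read by the Argonaute complex, which finds target messages through the bases near the 5′ end of the microRNA called the seed. In vertebrates the family is held low in early embryonic and stem cells, where LIN28 blocks the maturation of its precursors, and becomes abundant as tissues differentiate. Its best known targets promote growth, among them RAS genes, HMGA2, MYC and LIN28 itself. The microRNA miR-98 carries the same seed, while miR-98-3p is cut from the other strand of its hairpin, the passenger arm, and carries an unrelated seed.

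The target sequences, copied from the target column of the deposited spot files, show how closely the probes resemble each other. They are written 5′ to 3′ with the seed, bases 2 to 8, in capitals.
ssc-let-7a: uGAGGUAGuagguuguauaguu
ssc-let-7c: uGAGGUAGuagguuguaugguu
ssc-let-7e: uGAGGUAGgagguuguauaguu
ssc-let-7f: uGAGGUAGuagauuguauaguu
ssc-let-7g: uGAGGUAGuaguuuguacaguu
ssc-let-7i: uGAGGUAGuaguuugugcu
ssc-miR-98: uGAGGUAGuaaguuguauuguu
miR-98-3p-22500: uAUACAACuuacuacuuuccuu
Counted from 1 at the 5′ end and set against let-7a, let-7c has A19G, let-7e has U9G and let-7f has G12A. The let-7g target has G12U and U18C, and that of miR-98 has G11A and A19U. The let-7i target stops at 19 bases and differs over them by G12U, A17G, U18C and A19U. Pairs of the 7 seed carriers thus differ at 1 to 5 positions, and signal from one member on the probe of another cannot be told apart from its own signal. Probes outside the membership rule carry the seed as well, and a few are shown because they repeat or extend the members.
miR-7i-5p-8: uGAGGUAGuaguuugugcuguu
miR-7a-5p-430: uGAGGUAGuagguuguauaguuuu
miR-7f-5p-692: uGAGGUAGuagauuguauaguug
PN-7e-5p-4024: uGAGGUAGuagauugaauaguu
The first holds all 19 bases of the let-7i member and runs on to 22. The next pair hold the whole of let-7a and let-7f with extra bases at the 3′ end, and the last differs from let-7f by U16A.

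Levels are given as normalised log2 intensity, on which a step of 1 is a doubling, after removal of a background surface and scaling between arrays. The offset of 50 added before logs compresses low values, so folds of dim probes are understated, and levels of different probes are not comparable. Detection required that the 4 spots of a probe averaged more than 3 SD of the blank spots above background. All 6 let-7 members were detected in 12 of 12 RNAs. The probe ssc-miR-98 was detected in 5 RNAs, the day-40 incisor, day-40 canine, day-50 premolar and both later molars. Its passenger arm was detected in 4, the day-40 and day-60 incisor, the day-40 canine and the day-50 premolar. Apart from the day-60 molar, each of these RNAs lies in the left density column, which detected more probes than the right one on every array (330 to 732 against 266 to 402 over the 6 arrays).

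The day-50 and day-60 molars share 1 array, and this array stands apart from the other 5. Over the 222 probes detected in every RNA, Spearman's rho of a later molar with any other RNA was 0.217 to 0.547, against 0.624 to 0.975 among the other 10 RNAs and 0.965 between both later molars. Spots of the PUC2PM-20B spike read 41172 and 48227 there and 9096 to 24896 elsewhere. Spots of 5S RNA, at 5629 and 6524, lay within the range of the other RNAs, 4201 to 28513. Every statement on later molars below is therefore also a statement on that array, and the array and the molar germs of days 50 and 60 cannot be told apart. The day-40 molar lies on another array.

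The largest differences within the family lay between the later molars and everything else. All 7 members with the seed were higher in the day-50 and the day-60 molar than in any of the other 10 RNAs, and miR-98-3p was not. The split was noticed in these values, so it is described, and no p-value or critical value below counts as a test of it.

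For let-7a, the incisor read 7.64, 8.09 and 8.67 on days 40, 50 and 60, the canine 7.75, 8.65 and 8.17, the premolar 7.54, 7.88 and 8.999, and the molar 8.24, 12.94 and 13.10. The step between the day-40 molar and the later molars far exceeded all others, and the day-40 molar itself lay within the range of the remaining teeth. Before normalisation, the mean spot intensity above background of let-7a was 40.1 to 406 in the other 10 RNAs and 14679 and 12423 in the day-50 and day-60 molars. For let-7f, a member 1 base away from let-7a, the incisor read 6.93, 7.06 and 7.39, the canine 7.08, 7.64 and 7.05, the premolar 6.87, 6.51 and 7.69, and the molar 7.41 on day 40 and 12.17 on day 60, with the day-50 molar 0.17 ± 0.14 (SD of 4 spots) lower on the log2 scale. This was the widest gap in the family: the lower later molar stood 19.8-fold above the highest other RNA, the day-60 premolar, and the fold between the means was 30.3. For let-7a the corresponding gap was 15.4-fold and the fold of means 29.0.

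For let-7c, which in mammals shares its primary transcript with miR-99a, the incisor read 6.99, 7.70 and 8.14, the canine 7.27, 8.12 and 7.64, the premolar 7.15, 7.56 and 8.23, and the molar 7.73, 11.40 and 11.49. Its later molars stood 8.97-fold above the next RNA. The let-7e values were 6.48, 7.46 and 7.45 in the incisor, 6.78, 7.90 and 7.19 in the canine, 6.60, 6.93 and 7.42 in the premolar, and 6.96, 10.73 and 10.30 in the molar. In this member, clustered in mammals with miR-125a and miR-99b, the day-50 molar was the higher of the later molars, while in let-7a, c, f, g and i the day-60 molar was marginally the higher. For let-7g the incisor read 7.02, 7.46 and 7.59, the canine 7.04, 7.90 and 7.29, the premolar 6.90, 6.86 and 7.92, and the molar 7.38, 10.76 and 10.90. The gap was 5.27-fold for let-7e and 7.18-fold for let-7g, and groups did not overlap in either.

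The let-7i probe had the smallest gap among the seed carriers, 4.41-fold. Its incisor values were 8.77, 8.25 and 8.92, its canine values 8.43, 9.02 and 8.03, its premolar values 8.70, 7.91 and 9.15, and its molar values 8.85, 11.29 and 11.34. For ssc-miR-98, the other 10 RNAs lay between 6.16 and 6.31, at the floor of the scale, and the day-50 and day-60 molars at 9.10 and 8.99. Only 3 of those 10 RNAs were above background, so its gap of 6.41-fold is compressed by the offset. Before normalisation the lower later molar was 29.0 times the highest other RNA, the dim day-50 premolar (34.5 above background). That ratio is not scaled between arrays. The passenger arm miR-98-3p went the other way, at 6.07 and 6.13 in the later molars, where it was not above background, and 6.18 to 6.44 elsewhere. Over the 7 seed carriers the later molars read 8.99 to 13.10, and no other RNA exceeded 9.15 on any of these probes. Both arms were above background together in 3 RNAs (day-40 incisor, day-40 canine and day-50 premolar), and there both lay near the floor of the scale. Detection said little there: on the arrays of these RNAs 647, 705 and 732 of 742 probes were above background in at least 1 RNA. In the day-50 premolar, miR-98 had its lowest level of the 12 RNAs, 6.16.

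Counted by a fixed size, 7 of 8 members lay at least 2-fold above each of the other 10 RNAs in both later molars, and none lay 2-fold below. Over all 742 probes, 51 (6.87%) lay above by that rule and 25 (3.37%) below, so such shifts were not limited to the family, and 34 of the 51 do not contain the seed motif GAGGUAG. Ranked by the mean of the later molars minus the mean of the other RNAs, let-7f and let-7a were 2nd and 3rd of 742 probes, at 4.92 and 4.86. Next came let-7c in place 12 (3.79), let-7g in place 16 (3.49) and let-7e in place 19 (3.40). The last seed carriers were miR-98 in place 24 (2.81) and let-7i in place 26 (2.71), while miR-98-3p was in place 533 (-0.17).

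Probes that carry GAGGUAG but are not members behaved like the members. All 10 stood at least 2-fold above each other RNA in both later molars, with gaps from 2.85-fold (miR-7i-5p-8, the full-length let-7i) to 17.1-fold (PN-7e-5p-4024). That last probe was detected in 2 of the other 10 RNAs, where it ran from 6.11 to 6.41, and read 10.76 and 10.50 in the day-50 and day-60 molars. Its target differs from let-7f by the single change U16A, and whether its signal came from let-7f was not tested. The 3 passenger-arm probes gave another picture: miR-7a-3p-22829 and miR-7e-3p-28921 were not detected in the later molars, and miR-7d-3p-4142 read 8.05 and 7.95 there against 7.05 to 7.51 elsewhere, a gap of 1.35-fold.

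Marker lists differed on the same array, and their part in the family's levels was not tested. No share over all probes was counted for lying above or below every other RNA by any margin, so such counts are left out for the lists. The 17 epithelial probes were those of the miR-200 family, miR-141, miR-429, miR-203, miR-205 and miR-184. Their summed intensity above background was 40388 and 42543 in the later molars against 5787 to 25221 elsewhere. Their mean normalised log2 level overlapped, at 8.28 and 8.63 against 7.92 to 8.34. Such sums are not scaled between arrays, and the sum over all experimental probes was 2991130 and 4916320 in the later molars against 1108250 to 2549960. The 13 mesenchymal probes were those of miR-199a, miR-199b, miR-214 and miR-140. Their sums were 54326 and 87670 against 12133 to 41984, but their mean normalised log2 level was lower in the later molars, at 9.28 and 9.31 against 9.46 to 10.20. The 6 neural probes (miR-9, miR-124a, miR-128, miR-129) summed to 757 and 2146 against 26.7 to 361. Among them miR-124a, miR-129 and miR-128-5p-55018 were not detected in the later molars. Of the 12 skeletal muscle probes, those for miR-133a, miR-133b, miR-208b and miR-499 were not detected in the later molars. Nor were ssc-miR-1, miR-1-3p-9331 and miR-206-3p-33411, while ssc-miR-206 and PN-1-3p-13186 were detected in at least 1 of them. Of the 8 blood-cell probes, those for miR-142, miR-144, miR-223 and miR-486 were not detected in the later molars, and miR-451 was in at least 1. For endothelium, the 2 miR-126 probes summed to 1341 and 1797 in the later molars against 291 to 1685 elsewhere. Summed intensity of the epithelial and mesenchymal lists was thus positive in every RNA. Not detected in the later molars were PN-200a-5p-7019, PN-141-3p-21462, miR-429-5p-55061, miR-205-3p-2188 and ssc-miR-184. Nor were miR-214-5p-15474, ssc-miR-140 and both PN-140-5p probes. The muscle sums were positive too, at 286 and 358 against 51.7 to 4429. Those of the blood-cell list were 291 and 506 against 137 to 2812.

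To ask whether the family differed between tooth types or between days, a limma model with terms for tooth, day and dye, and the array as a random block, was run over the 656 probes that 3 or more of the 12 RNAs detected. All 8 members were among them. With 1 RNA per condition, p-values measure the spread of single RNAs around this additive pattern and not the spread between animals. No member passed an adjusted p of 0.05 over the tooth types (adjusted p 0.345 to 0.680), where 6 of 656 probes (0.915%) did. None passed over the days (adjusted p 0.545 to 0.939), where 0 of 656 did (0%). At an unadjusted p under 0.05 the day test held 102 probes and 0 members, and the tooth-type test 123 probes and 0 members. Among the pairwise limma tests, unadjusted p for molar minus incisor was 0.0457 for let-7a, 0.0333 for let-7c and 0.0275 for let-7i. For molar minus premolar it was 0.0489 for let-7i. No share over all probes was counted for these pairs at that level. No member passed for posterior (premolar and molar) against anterior (incisor and canine) germs either, where the share called was again 0%. In pairwise tests 9 probes (1.37%) were called between some pair of tooth types and 5 (0.762%) between some pair of days, with 0 members in each.

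The fitted sizes were nonetheless one-sided. From day 40 to day 60 the members' median difference was 1.29 on the log2 scale, against 0.00 over all tested probes. The estimate was 1.81 ± 1.07 (SE) for let-7a, 1.50 ± 0.79 for let-7c, 1.29 ± 0.76 for let-7e and -0.06 ± 0.09 for miR-98-3p. Leaving out single RNAs or arrays moved the median from 0.43 (without the day-40 molar and canine array) to 2.14 (without the day-40 premolar and incisor array). Over the same settings let-7a ran from 0.89 to 2.99, let-7c from 0.82 to 2.32 and let-7e from 0.61 to 2.15. For molar minus incisor, where 0.305% of probes were called, the median was 1.52 against 0.01, with 2.08 ± 0.84 (SE) for let-7a, limma adjusted p = 0.215, and 1.53 ± 0.54 for let-7i, limma adjusted p = 0.178. For posterior minus anterior the median was 0.58 against 0.00, and let-7c stood at 0.71 ± 0.33 (SE). This median was -0.07 without the day-60 canine and 1.51 without the day-40 molar, and let-7c ran from 0.13 to 1.82. These estimates draw on the later molars: without their array (10 RNAs, 3 residual degrees of freedom), the medians were 0.56 for day 60 minus day 40, 0.67 for molar minus incisor and 0.22 for posterior minus anterior. In that fit let-7a stood at 1.04 ± 0.37 (SE) and let-7c at 0.91 ± 0.26 (SE) from day 40 to day 60, limma adjusted p = 0.331 and 0.226, and no member was called.

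One RNA decided the tooth-type calls. Without the day-40 molar, molars were represented by the later molar array alone, and 6 of 8 members were then called over the tooth types in limma, all seed carriers other than let-7i, with adjusted p from 0.000572 (miR-98) to 0.0114 (let-7g). The same fit called 110 of all 656 probes (16.8%). Here and in the fits below the molar group is the later molar array, so these p-values are no test of the split already noticed. Without the day-40 molar, molar minus incisor was 5.03 ± 0.40 (SE) for let-7f and 2.82 ± 0.11 (SE) for miR-98. All incisor, canine and premolar RNAs lay at the floor of the scale for miR-98. Posterior against anterior germs then called 7 members, against 122 of 656 probes (18.6%), and some pair of tooth types also called 7, against 159 (24.2%). Without the whole array of the day-40 molar and canine, 6 members were called over the tooth types (background 106 probes, 16.2%) and 6 for posterior against anterior germs (102 probes, 15.5%), while some pair of tooth types called 7 (169 probes, 25.8%). Let-7a in the molar averaged 11.43 ± 2.76 (SD, n = 3), compared with 8.13 ± 0.51 in the incisor, 8.19 ± 0.45 in the canine and 8.14 ± 0.76 in the premolar (SD, n = 3 each).

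Away from the later molars, the course over days was followed in the incisor, canine and premolar. The let-7a, let-7c and let-7e probes were higher on days 50 and 60 than on day 40 in each of these teeth, in 6 of 6 comparisons, as were 89 of 656 tested probes (13.6%). For let-7a, the differences from day 40 were 0.45 and 1.03 in the incisor, 0.90 and 0.42 in the canine, and 0.34 and 1.46 in the premolar, on days 50 and 60. For let-7e they were 0.98 and 0.97 in the incisor, 1.12 and 0.42 in the canine, and 0.33 and 0.82 in the premolar. The canine had its highest let-7a, c, e, f, g and i level on day 50, whereas the premolar had it on day 60. The count was 5 of 6 for let-7g, 4 for let-7f, 3 for let-7i and miR-98-3p, and 2 for miR-98. All day-40 RNAs lie on 2 arrays that hold no other day, so the day and these arrays cannot be told apart.

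The let-7i member and the full-length let-7i probe disagreed here. On the member, which ends at base 19, the incisor differed by -0.53 and 0.15 from day 40 to days 50 and 60, the canine by 0.59 and -0.41, and the premolar by -0.80 and 0.44. On miR-7i-5p-8 the same differences were 0.80 and 1.00, 1.43 and 0.70, and 0.29 and 1.16, above 0 in 6 of 6. Over the 10 RNAs off the later molar array these probes correlated with r = 0.400, while ssc-let-7a and its longer version miR-7a-5p-430 correlated with r = 0.984, and ssc-let-7f and miR-7f-5p-692 with r = 0.857. In all, 10 of the 10 other probes with the motif were higher on both later days in 6 of 6 comparisons, against 13.6% of tested probes. Those include 2 that were above background in only 2 of the 10 RNAs, and all of them share RNAs, arrays and most of their target sequence with the members. The passenger-arm probe miR-7d-3p-4142, without the motif, was also higher in 6 of 6, and miR-7a-3p-22829 and miR-7e-3p-28921 in 3 of 6.

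Each array also compared its RNAs directly. The rule asked for a ratio of 2-fold or more with the same sign at each of the 4 spots. On no array did a member meet it (0 members), where 174 of 3413 ratios of detected probes (5.1%) did. How many of all detected probes kept one sign in 4 spots was not counted, so one sign cannot be read as particular to the family on any array. The ratio of the day-50 incisor over the day-50 canine was below 0 in all 4 spots for each of the 6 let-7 members. It was -0.77 ± 0.04 (SD of 4 spots) for let-7i, -0.58 ± 0.17 for let-7f, -0.57 ± 0.19 for let-7a, -0.44 ± 0.05 for let-7e, -0.44 ± 0.03 for let-7g and -0.42 ± 0.08 for let-7c. These spots are technical repeats of 1 RNA pair and carry no error between germs.

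On the day-40 array, let-7a, c, f, g and i were higher in the molar than in the canine in all 4 spots, at 0.33 to 0.49, and let-7e was not of one sign. On day 60, let-7a, f, g and i were higher in the premolar than in the incisor in all 4 spots, at 0.23 to 0.33. The day-40 premolar and incisor differed least, with a median of -0.07 over the 7 seed carriers. For the day-60 canine over the day-50 premolar the median was 0.26, with let-7f at 0.55 ± 0.33 (SD of 4 spots). Between the later molars, let-7e and miR-98 were higher on day 50 in all 4 spots, at 0.44 ± 0.11 and 0.10 ± 0.06, while let-7a, f and g were lower on day 50, at -0.16, -0.17 and -0.14. The headings and labels of that array disagree on the order of its RNAs, and with the RNAs exchanged these signs turn. Under median centring of each channel, with no correction along intensity, 8 of the 44 member ratios with detection met the 2-fold rule, against 306 of 3413 (8.97%) over all probes: let-7a, c, e, g and i below 0 for the day-50 incisor over canine, and let-7a, c and i above 0 for the day-40 molar over canine. In the authors' deposited table, 4 of the 44 were at least 2-fold on the mean value, against 585 of 3413 (17.1%): let-7f at -1.41 for the day-50 incisor over canine, at 1.05 for the day-40 molar over canine and at 1.09 for the day-60 canine over day-50 premolar, and miR-98-3p at -1.19 for the day-40 premolar over incisor, where the premolar was not above background.

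Over 12 RNAs, pairs of the 7 seed carriers correlated with r = 0.920 to 0.998, which rests on the later molars. Over the other 10 RNAs, pairs of let-7a, c, e, f and g correlated with r = 0.662 to 0.966 and pairs with let-7i with r = 0.247 to 0.790. Pairs with miR-98, which 3 of these 10 RNAs detected, ran from r = -0.073 with let-7e to 0.641 with let-7i. Among 169 tested mature pig probes outside the family, those most like the mean of the 6 let-7 members over 12 RNAs were miR-26a (r = 0.987), miR-23a (0.981), miR-15b (0.977), miR-21 (0.970) and miR-23b (0.969), and those least like it were miR-331-3p (-0.956) and miR-455 (-0.931). The likeness of miR-21 rested on the later molar array, since its r was 0.04 over the other 10 RNAs, whereas miR-26a kept 0.799 and miR-23a 0.842. Over those 10 RNAs the highest values were those of miR-125a (r = 0.899), miR-361-5p (0.872), miR-100 (0.860), miR-30c (0.855) and miR-92a (0.848), against a median of 0.04 over the 169 probes. All these values share RNAs, arrays and normalisation and are given as a description.

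In the RefSeq gene table of the pig assembly Sscrofa11.1, whose order of genes was used without coordinates, let-7c neighbours miR-99a, let-7e lies between miR-125a and miR-99b, and a let-7a gene lies between miR-125b and miR-100. Another let-7a gene stands with let-7f and let-7d genes, miR-98 neighbours a further let-7f gene, and let-7g and let-7i have no neighbour of these families. Of the 11 probes for miR-99, miR-100 and miR-125, 0 were called in limma over tooth types, days or position. In both later molars 0 of the 11 lay at least 2-fold above every other RNA, against 51 of all 742 probes (6.87%). The share of all probes that lay above by any margin was not counted, so no count of partners is given by that rule. The miR-125a probe read 11.43 and 11.40 there and 9.28 to 10.51 elsewhere, and miR-100 read 9.53 to 9.59 and 7.11 to 8.76, so their later molars exceeded the other means 2.90-fold and 3.51-fold. The miR-99a probe, the neighbour of let-7c, read 9.38 and 9.66 in the later molars and up to 9.77 elsewhere, so its groups overlapped where those of let-7c did not. From day 40 to days 50 and 60, miR-100, miR-125a and miR-99b were higher in 6 of 6 comparisons in incisor, canine and premolar.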

How the data were processed

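The deposited spot files hold mean spot intensity on a linear scale in 2 density columns, with no background removed, per the file headers, and a deposited table holds the authors' log2 value per probe and array, whose scaling and centring stay unknown (medians 0.01 to 0.16; r = 0.859 to 0.962 with the ratios computed here, first-named RNA over second). Digit-grouping commas were removed, so the values deposited by the authors were recorded under the unit "other". Scanner, image software and genome build: not given in the sources used here. RNAs were taken from column headings and dyes from labels, which disagree on column order for the later molar array; for 1 array, the title's incisor day departs from its remaining labels, which give day 50, the value taken. Of 3968 spots per array, 716 blanks gave a background surface (robust loess, span 0.3), followed by normexp (offset 50), loess within arrays (control spots at weight 0), Aquantile between arrays and the mean of 4 spots. The limma 3.58.1 fit (statmod 1.5.0, R 4.3.3; correlation within arrays 0.828, 5 residual degrees of freedom) used two-sided tests with Benjamini-Hochberg adjustment over 656 probes at 0.05. Precision is limited by there being 6 arrays. Members, marker lists and partners were chosen with earlier results of these data known; the named genes are all members, all miR-99, miR-100 and miR-125 probes, and the 5 most and 2 least alike mature pig probes. The other probes with the seed, the passenger arms and the likeness over 10 RNAs were added after seeing the data.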

Additional observations from a re-analysis of the deposited data

Results flagged for a closer look

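Within each day, the 4 tooth types were compared by the gap of the extreme RNA to its nearest neighbour as a share of the group's range, for each of the 8 members. The day-50 molar stood apart beyond Dixon's 95% critical value for let-7a (0.847), let-7c (0.853) and miR-98 (0.982). The day-60 molar stood apart for let-7a (0.831), let-7c (0.847), let-7e (0.918), let-7f (0.875) and miR-98 (0.972). In each case the molar was the high value, and no day-40 group stood apart. For miR-98 the other RNAs of days 50 and 60 lay at the floor of the scale, and only the day-50 premolar among them was above background. By the same measure 78 of 656 tested probes (11.9%) had an RNA apart on day 50 and 97 (14.8%) on day 60, with the molar high in 52 (7.93%) and 56 (8.54%). Chance gives about 1 such gap in 20 groups, and these 8 are not independent, since they come from 2 RNAs of 1 array. The split of the later molars had already been noticed in these values, so the critical value is no test of it.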

How the results depend on the processing

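No paired analysis was possible because every array and every condition occurs once. The count of 7 members at least 2-fold above each other RNA in both later molars was 7 under each of the 25 alternatives run. Most of these could not have lowered it. Leaving out an RNA or array can only keep or widen the gap, and exchanging the later molars leaves the rule as it was. Alternatives that could have moved the count include median centring and no scaling between arrays. The counts of called members were 0 under all alternatives that kept every RNA. On leaving out single RNAs or arrays they ran from 0 to 6 over tooth types, 0 to 7 for any pair of tooth types, 0 to 7 for posterior against anterior germs, and stayed at 0 for days; every value above 0 came from leaving out the day-40 molar or its array. Member ratios at 2-fold numbered 8 under median centring (all probes 8.97%) and 4 in the authors' values (all probes 17.1%), against 0; the cause was not tested. With no scaling between arrays the median over all probes moved to 0.19 for day 60 minus day 40. For that contrast miR-98-3p turned to 0.059 without scaling and to 0.0029 with dye by column. On leaving out single RNAs or arrays it ran from -0.15 to 0.069 for miR-98-3p, -0.20 to 1.43 for let-7i and -0.039 to 1.49 for miR-98. Posterior minus anterior ran from -0.20 to 1.40 for let-7e, -0.083 to 2.36 for let-7f, -0.074 to 1.61 for let-7g and -0.066 to 1.39 for miR-98. The correlation within arrays, on which standard errors rest, ran from -0.34 to 0.97. Detection of miR-98 and miR-98-3p was limited by signal over background; neither was tested with one background level per array or when only probes detected in all 12 RNAs were kept.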
